A study of Homo sapiens with 2 samples.

Results

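The regions described here are the windows of long exons at an end of a transcript, in a map of N6-methyladenosine (m6A) in human lymphoblastoid RNA. For each gene with 3 or more exons and a mean input coverage of at least 1, the longer of exon 1 and the highest-numbered exon was taken, and it was kept if it held 21 to 40 overlapping windows. The rule found 2350 such exons, 1 per gene, with 69269 windows of the 1983959 in the longest listing of every gene. Windows are 100 nt long and start every 50 nt, so neighbouring windows share sequence, and windows of 1 exon come from 1 transcript and are not replicates.

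The cells were GM12878, an Epstein-Barr virus transformed human B lymphoblastoid line, grown untreated in RPMI with 15% serum. Total RNA was extracted with TRIZOL, column purified and fragmented, and one portion was immunoprecipitated (IP) with an antibody to m6A while another was kept as input. Both were made into strand-specific libraries by the dUTP method, with 1 library in each group, so no difference below has a replicate check and no p-value is given. A source field of the labels names mouse embryonic stem cells, whereas the organism and cell line fields give human GM12878. In the input all 9 B cell markers looked at were measured, with mean coverages from 9.93 to 775, whereas the 5 pluripotency markers lay at or below 0.153 and CD3E, at 1.52, was the highest of the T cell, myeloid, fibroblast and erythroid markers.

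N6-methyladenosine is the most common internal base modification of messenger RNA. A nuclear complex built on METTL3 and METTL14, with WTAP among its partners, deposits it, and proteins with a YTH domain bind it and can direct the transcript to decay or translation. It is known to be concentrated in long exons and near the start of the last exon, around stop codons. A long terminal exon therefore holds, in most genes, the end of the coding sequence followed by the 3′ untranslated region.

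The deposited table gives, for each window, the scaled coverage in IP and in input and a window score. That score is the log2 of (IP + 1) over (input + 1), less the same quantity for the gene's median coverages, so 0 is the gene's own typical level. A window is called enriched here at a score of 2 or more, and a run is 2 or more consecutive enriched windows inside the exon. The exon score is the highest mean score of 2 neighbouring windows, and the peak is the highest window of an exon's runs. Coverage is per base, so levels can be set side by side between genes. The coverage moves in equal steps, each taken as 1 base of a read in a window. With reads taken as 36 nt long, a scaled coverage of 1 stands for 16.2 reads in a window of the input and 10.3 in the IP. The longest listings then hold the equivalent of 51.7 M input and 58.5 M IP reads. Intervals below are exact 95% intervals (Clopper-Pearson), which cover counting error only. Those of window shares treat overlapping windows as independent and are therefore too narrow. PCR copies are not independent reads either.

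Exon numbers turned out to follow the chromosome and not the direction of transcription. A strand could be looked up for 1880 of the member genes. Of these, 924 plus-strand genes contributed their highest exon and 24 their exon 1, whereas 897 minus-strand genes contributed exon 1 and 35 the highest exon. The member exon was thus at the 3′ end of the transcript in 1821 genes (96.9%, interval 96.0 to 97.6%) and at the 5′ end in 59, with 470 genes without a strand. The inner edge, from which distances are counted below, is the side facing the rest of the transcript, so for nearly all of these exons it is the splice junction that starts the last exon. By gene class, 2205 members were protein coding, 33 pseudogenes and 14 long noncoding RNAs.

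The median member exon had 29 windows (middle 50%, 25 to 34) in a gene of 9 exons, and it made up a median of 47.8% of its transcript's windows, with a range from 4.61 to 90.7%. The median gene had a mean input of 3.61, with the 10th percentile at 1.36 and the 90th at 13.7. Length and mean input were used by the rule and are descriptions only. At the length limits, 39.0% of the 154 exons of 20 windows and 35.5% of the 141 exons of 21 windows held a run, as did 45.8% of the 72 exons of 40 windows and 50.6% of the 81 exons of 41 windows. At the input limit, 19 of 52 like exons in genes with a mean input of 0.9 to 1 and 20 of 62 in genes with 1 to 1.1 held a run. Among the 3588 exons of the same length below the input limit, 7.89% held one. Some exons are listed under more than 1 gene name: 74 members had coverage identical to another member's, and the shares below differ little when each is counted once (44.1% of exons with a run).

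Enriched windows were common in these exons but occupied a small part of them. Of the 69269 windows, 6452 (9.31%, interval 9.10 to 9.53%) had a score of 2 or more, beside 2.64% of all windows of the longest listings and 5.6% in measured genes of 3 or more exons. A run was present in 1038 exons (44.2%, interval 42.1 to 46.2%), beside 4.91% of all exons of measured genes and 48.9% of all their exons of 21 to 40 windows, a set that contains the members. A further 85 exons had a single enriched window apart from any run, and 1222 had none. In the opposite direction 125 windows (0.180%) in 49 exons had a score of -2 or less, beside 0.246% in measured genes of 3 or more exons. The members thus lay above the share of all windows at the high end and below it at the low end, but their share with a run was under that of all exons of their length.

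Exon scores spread widely. The median was 1.85 on the log2 scale, the 10th percentile 0.57 and the 90th 3.98, and the range ran from -0.60 to 6.71. At least 3 was reached by 591 exons (25.1%), at least 4 by 231 (9.83%), at least 5 by 51 and at least 6 by 5. At the peak of the 1038 exons with a run, the median IP coverage was 72.5 against a median input of 4.90, and the median ratio of IP to input was 14.8 (middle 50%, 8.19 to 27.8). Input at the peak was below the gene's median in 200 exons (19.3%) and under 1 in 45, where a ratio rests on few input reads.

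**Figure D1:**
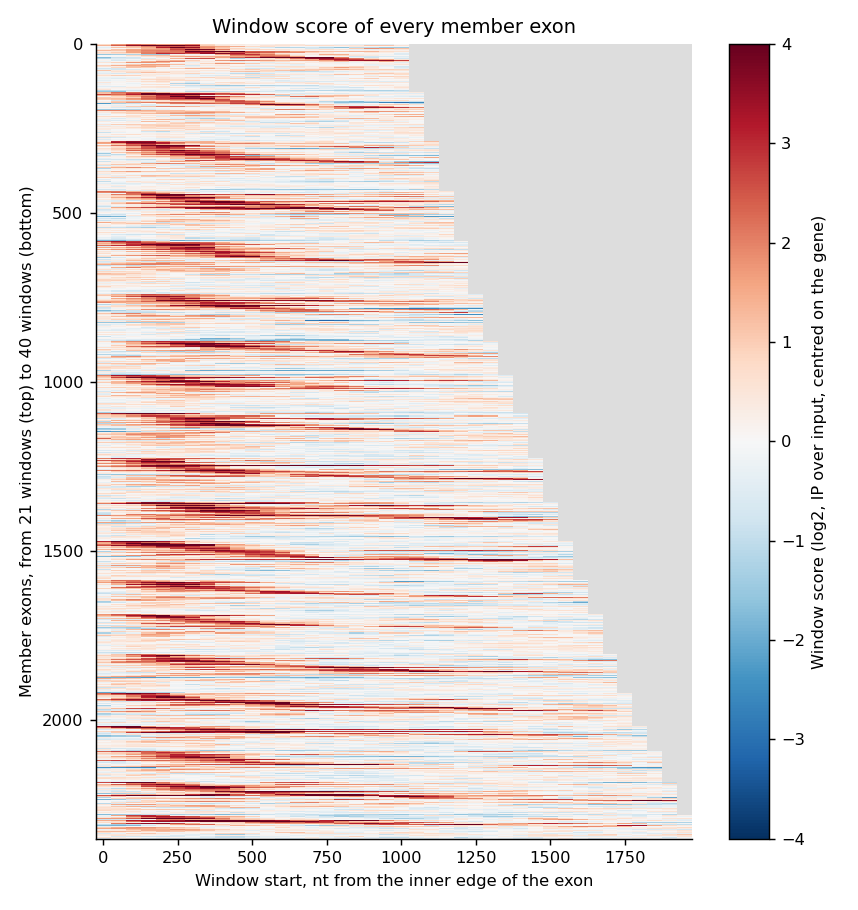
Window scores (log2, colour) of all 2350 member exons, 1 row each, against the start of the window in nt from the inner edge; exons are sorted by length from 21 to 40 windows and grey lies beyond the exon. High scores (red) gather between about 100 and 500 nt at every length, and a minority of rows carry them to the right edge.

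The enriched windows lay close to the inner edge but not at it. Enriched windows made up 3.11% of the innermost windows, rose to 22.7% at 250 nt and 22.6% at 300 nt, and fell to 13.6% at 500 nt and 5.11% at 950 nt. In the outermost window the share was 0.979%. With each exon divided into 10 equal bins, the share from the inner edge outwards was 7.18, 19.6, 19.4, 14.0 and 9.75% in the first 5 bins and 7.49, 5.31, 4.89, 3.65 and 1.84% in the last 5. It thus declined in every step from the bin after the first to the outer edge.

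Input coverage also varied along the exon. The median input was 2.25 in the innermost window, 5.51 at 100 nt, 4.35 at 250 nt and 2.39 at 1000 nt, whereas the median IP rose from 2.70 to 12.4 at 200 nt and came back to 2.63 at 1000 nt. The ratio of these medians was 1.20 at the inner edge, 2.64 at 250 nt and 1.11 at 900 nt. With each exon divided into 3 equal parts, input in the outer part was a median of 0.534 times that in the inner part, and for IP this ratio was 0.269. Among windows whose input reached both 5 and the median of the gene, 5.03% were enriched at the inner edge, 29.4% at 300 nt and 6.88% at 1000 nt, so the same rise and fall was present where input was high.

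Members that are the highest exon and those that are exon 1 gave the same shape with a shift. The share of enriched windows in the 1193 highest exons was 5.36% at the edge and greatest, 24.5%, at 200 nt. In the 1157 members that are exon 1 it was 0.778% at the edge and greatest, 22.7%, at 300 nt. Input moved with this shift, being 4.69 in the innermost window of highest exons and 0.803 in that of exon 1. The last-numbered window of an exon was low in exons of other kinds too: in 5126 internal exons of 6 or more windows the median input was 3.82 in the first window and 0.528 in the last. The part of this low window in the shift was not tested. Runs were present in 44.8% of highest exons and 43.6% of exon 1 members, with intervals that overlap.

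**Figure D2:**
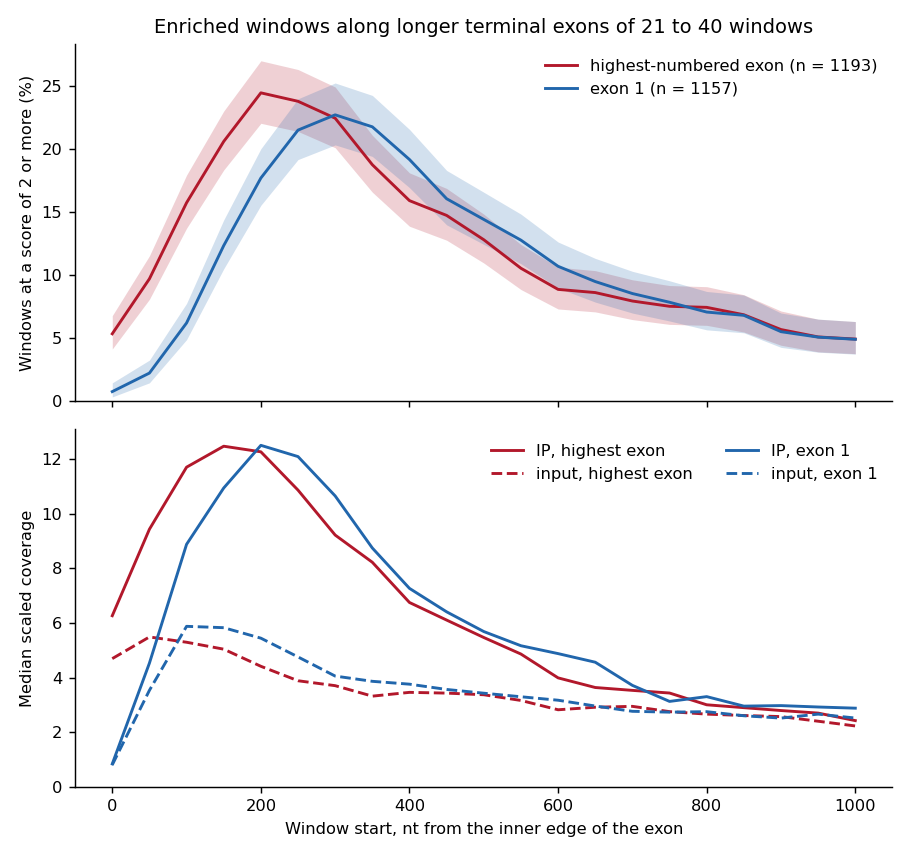
Upper panel, percentage of windows at a score of 2 or more (bands, exact 95% intervals) against window start in nt from the inner edge; lower panel, median scaled coverage of IP (solid) and input (dashed), for the 1193 highest exons and 1157 exons numbered 1. Both kinds peak at 200 to 300 nt, at 24.5 and 22.7%, and the exon 1 curves start lower in input and in enrichment.

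Where the peak sat depended little on the length of the exon when counted in nt. The median distance from the inner edge to the peak was 400 nt (middle 50%, 250 to 650), or 27.4% of the exon. In exons of 21 to 25 windows it was 350 nt, and in those of 26 to 30, 31 to 35 and 36 to 40 windows it was 400 nt in each. As a share of the exon the same peaks lay at 31.3, 28.3, 26.6 and 23.6%, so the relative place moved inwards as the distance stayed near 400 nt. The most common 100 nt interval was 200 to 299 nt, with 221 of the 1038 peaks (21.3%), whereas the first 100 nt held 18 (1.73%). The inner part of the exon held 624 peaks (60.1%), the middle part 285 (27.5%) and the outer part 129 (12.4%). The longest exons had more far peaks: 17.7% of peaks lay at 1000 nt or more in exons of 36 to 40 windows and 3.16% in exons of 21 to 25 windows, which end soon after that distance.

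Longer members held a run more often, while the share of their windows that was enriched did not rise. A run was found in 38.6, 43.6, 46.9 and 50.9% of exons across the same 4 length classes, and the intervals of the shortest (35.1 to 42.2%) and the longest class (46.1 to 55.7%) do not overlap. The share of enriched windows was 9.75% in the shortest class and 9.15, 9.13 and 9.24% in the others. Each exon with a run had a median of 5 enriched windows in the first 3 classes and 6 in the longest. A longer exon also has more places where a run can fall. The median input of the exon fell from 3.17 in the shortest class to 2.37 in the longest. The part of either in these shares was not tested.

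**Figure D3:**
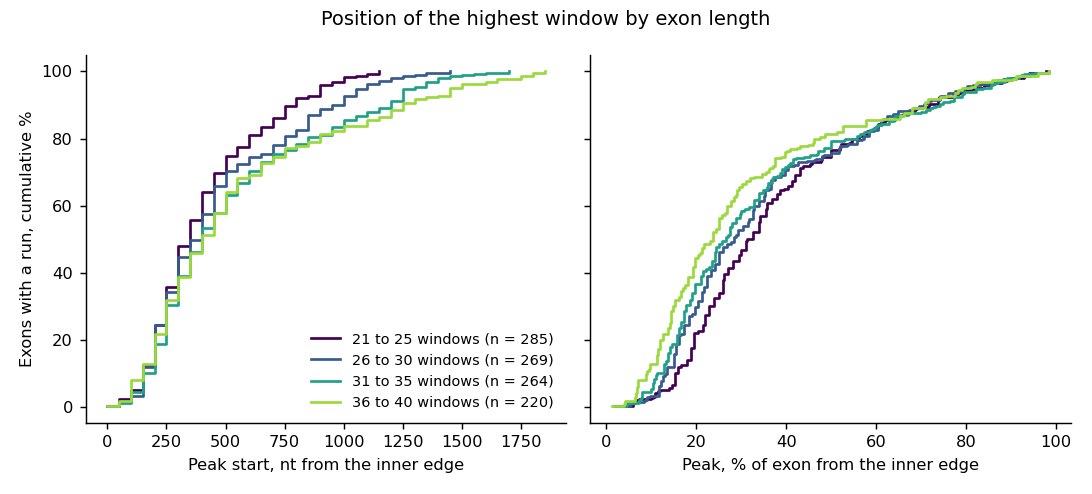
Cumulative percentage of exons with a run whose peak starts within a given distance of the inner edge, in nt (left) and as a percentage of the exon (right), for 4 classes of exon length. The curves lie close together in nt up to about 400 nt and separate as a share of the exon, with medians of 31.3% in the shortest class and 23.6% in the longest.

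The strongest member was RSF1, a histone-binding subunit of a chromatin remodelling complex. In its last exon of 26 windows IP coverage climbed from 18.4 at 200 nt to 404 at 400 nt, 708 at 450 nt and 457 at 500 nt, and was back to 9.41 at 750 nt. Input at the same 5 places was 2.84, 2.26, 3.74, 3.63 and 0.952. At 450 nt this is a ratio of IP to input of 189.6 (counting interval 146 to 246) and the exon score was 6.71. The run covered 11 windows, and from 800 nt outwards no window was enriched, although input at 1000 nt was 2.83.

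The next members by exon score also rose steeply over a much lower input. CDC25A, the phosphatase that activates cyclin-dependent kinases at entry into S phase and mitosis, had an IP of 428 and an input of 4.04 at 300 nt, a ratio of 106 (82.4 to 136), and an exon score of 6.40. TOR3A, a torsin family ATPase, had 743 against 8.66 at 300 nt and an exon score of 6.18. IFNAR2, a chain of the type I interferon receptor, had 611 against 8.13 at 650 nt, and its run of 17 windows began at the inner edge with lower summits of 214 at 200 nt and 177 at 450 nt in IP. XYLT2, a xylosyltransferase that starts glycosaminoglycan chains, had 657 against 8.24 at 200 nt. SEMA7A, a membrane-anchored semaphorin, had 1241 against 17.1 at 650 nt. All 5 of these exons had 1 run each, and the exon scores of the last 3 were 6.02, 6.01 and 5.93.

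UBE2Q1, a ubiquitin-conjugating enzyme, had the highest IP among these leading exons. Its IP rose from 80.2 in the innermost window to 2059 at 200 nt, where input was 25.3, and returned to 9.54 at 500 nt, where input was 1.88. Its ratio at the peak was 81.3 (73.7 to 89.8), and the exon score 5.85. MED18, a subunit of the Mediator complex that links transcription factors to RNA polymerase II, peaked at the same 200 nt with 727 against 14.5 and an exon score of 5.73. FAM118A did so with 531 against 8.06. In NRG2, a neuregulin growth factor, the summit of 366 against 4.57 stood at 750 nt. The peak position therefore differed among the 12 highest exon scores from 200 nt to 1450 nt, the latter in ANAPC1, the scaffold subunit of the anaphase-promoting complex. The order within these 12 depends on the settings: with 5 added to each coverage 10 of the 12 stayed among the highest 12, with 0.1 added 8 did, and without centring on the gene's median 7 did. RSF1 was first in all 4 rankings.

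**Figure D4:**
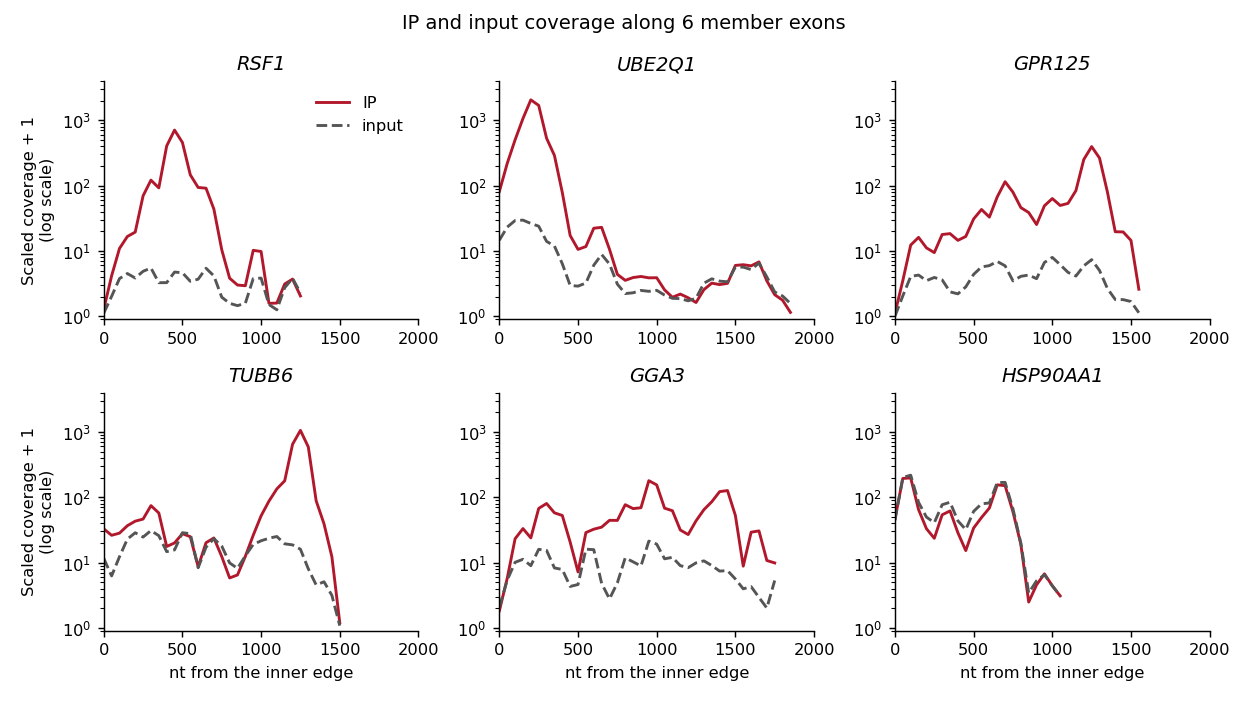
Scaled coverage plus 1 (log axis) of IP (solid) and input (dashed) against distance from the inner edge in nt along 6 member exons. RSF1 and UBE2Q1 show 1 summit (IP of 708 and 2059), GPR125 a run of 25 windows, TUBB6 a far summit (IP above 1000), GGA3 4 runs, and in HSP90AA1 IP stays close to input.

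Most runs were short and single. The 1257 runs had a median length of 4 windows: 536 held 2 to 3 windows, 611 held 4 to 9 and 110 held 10 or more. One run was present in 846 exons, a pair in 167, 3 in 23 and at least 4 in 2. Runs touched the inner edge in 67 cases and the outer edge in 21. Of the 219 pairs of neighbouring runs in an exon, 42 were separated by a single window below the threshold, whereas 100 were 5 or more windows apart.

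A few exons were enriched over most of their length. In AFG3L1P, a pseudogene of a mitochondrial protease subunit, the run held 29 of 39 windows from the inner edge on. IP there stayed between 13.0 and 113 over an input of 0.921 to 8.67, with no single summit, and beyond 1600 nt it fell under 5. GPR125, an adhesion G protein-coupled receptor, had a run of 25 of 32 windows starting at 300 nt, with an IP of 114 at 700 nt, a dip to 24.3 at 900 nt and a second summit of 395 against 6.34 at 1250 nt. BMP2K, a protein kinase, had a run of 24 windows with a peak of 153 against 3.45 at 1000 nt.

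The most divided exons were those of FAM35B2 and GGA3, with 4 runs each, followed by SLC25A25 and ATP10A with 3. GGA3, an adaptor for clathrin coats at the Golgi, rose and fell across its 36 windows. IP was 56.7, 43.3, 178, 126 and 29.5 at 350, 700, 950, 1450 and 1650 nt over inputs of 7.26, 1.77, 20.3, 6.52 and 1.92. The positions at 700 and 950 nt lie in the same run. The runs were 2, 8, 5 and 2 windows long. SLC25A25, a mitochondrial carrier, peaked at 450 nt with 85.4 against 2.49, and ATP10A, a phospholipid flippase, at 600 nt with 123 against 4.27. The gene-wide input of FAM35B2, SLC25A25 and ATP10A was low (means of 1.28, 1.22 and 1.57), so their divisions rest on few input reads.

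Among the 129 exons with a peak in the outer part, GPR125 and ANAPC1 had the highest exon scores (5.79 and 5.68), followed by TUBB6 (5.36) and SEPHS1 (4.89). In TUBB6, a beta tubulin, the inner 1000 nt carried no enriched window, with an IP of 73.4 and an input of 29.9 at 300 nt. IP then rose to 647, 1056 and 589 at 1200, 1250 and 1300 nt over inputs of 17.6, 15.0 and 7.01. In SEPHS1, a member of the selenophosphate synthetase family, the summit of 78.9 against 1.83 was at 1850 nt, 96.2% of the way along the exon. Its IP and input at 300 nt were 10.2 and 7.16. In ANAPC1 they were 4.13 and 3.68 at 300 nt, and 136 and 1.86 at 1450 nt. In TUBB6, SEPHS1 and ANAPC1 input was lower at the far summit than at 300 nt, while IP was higher there.

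Some of the most abundant members showed no enrichment along the whole exon. Of the lowest exon scores among the 10% of members with the highest median input, 4 are given here. HSP90AA1, the stress-inducible cytosolic HSP90 chaperone, had IP of 197, 60.7 and 150 at 100, 350 and 700 nt against input of 217, 82.9 and 168, and an exon score of 0.39. Its IP followed the ups and downs of the input across the exon and stayed under it at each of these positions. LRP10, a receptor of the LDL receptor family, had an exon score of 0.23, but its transcript held 2 runs in other exons.

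The others are near-identical copies of other genes. Whether the authors' counting split reads between the copies was not tested. HNRNPA1L2, a copy of the RNA-binding protein HNRNPA1, scored 0.01, and RPSAP58, a ribosomal protein pseudogene, 0.48. Their values are uncertain and depend on the centring. Without it the exon score of HNRNPA1L2 was 1.20 and that of RPSAP58 -0.23.

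The member exon was the main site of enrichment in its transcript, though not the only one. Among the 2350 genes, 904 (38.5%) had a run in the member exon alone, 134 (5.70%) in it and elsewhere, 255 (10.9%) elsewhere alone and 1057 (44.98%) in no exon. A run anywhere was thus present in 1293 of the 2350 genes, beside 47.9% of measured genes of 3 or more exons. Of these 1293 genes, the highest pair of windows was in the member exon in 976 (75.5%, interval 73.0 to 77.8%). Member exons held 41.5% of the windows of their transcripts and 68.9% of the 9364 enriched ones. Internal exons of the same genes were enriched in 3.08% of windows, and the shorter terminal exon in 2.48%.

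Long internal exons of the same genes were the main other place. In genes with a run elsewhere alone, 302 other exons held one. Of these exons 242 were internal, 184 of them with 11 or more windows, and 60 were shorter terminal exons. The share of enriched windows was 0.0812% in internal exons of 1 to 5 windows, 4.26% in exons of 6 to 10, 24.5% for 11 to 20 windows and 18.8% for over 20. In the 362 member genes with an internal exon of 11 or more windows, 73.2% (interval 68.3 to 77.7%) had a run outside the member exon, and in the other 1988 genes 6.24% (5.21 to 7.39%) did. The member exon itself held a run in 40.9% (35.8 to 46.1%) and 44.8% (42.6 to 47.0%) of these genes, and these intervals overlap. KDM6B, a histone demethylase, had runs outside the member exon only, with a highest pair of windows at 4.33 against an exon score of 0.61. The same held for ZNF687 (3.66 against 0.15) and for RNF43, a membrane ubiquitin ligase (3.98 against -0.25).

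Genes were grouped by function or by family name, and the number of members with a run is given as a description. Many lists have few members and no interval is given for them. Their differences from the share of all members were not tested. Of 12 members in the NF-kB pathway, a central pathway of lymphoid activation, 8 had a run, beside 44.2% of all members, and the median exon score was 2.89 beside 1.85. TAB1, an adaptor of the TAK1 kinase, had a peak of 266 against 5.51 at 350 nt, and ICAM1, an adhesion molecule, 666 against 19.9 at 200 nt. IKBKB, a catalytic subunit of the IkB kinase complex, had 274 against 8.67 at 400 nt. REL, a transcription factor subunit, had 144 against 7.07 at 400 nt. NFKBIZ was the lowest, with an exon score of 0.36. B cell genes had runs in 6 of 10, against the same 44.2%, led by IKZF5 (4.75), IKBKB and DOCK8 (4.16). The member exons of IRF8 (0.59) and the costimulatory ligand CD80 (0.57) had none. The transcript of CD80 held 1 run elsewhere, with a highest pair of windows at 2.84. CIITA, the master regulator of class II antigen presentation genes, peaked at 800 nt with 402 against 14.1.

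Immediate early and short-lived transcripts had runs in 7 of 11 members, beside 44.2% of all members, with a median exon score of 2.48 beside 1.85. The last exon of MYC, a transcription factor of growth, had an IP of 199 at 200 nt, 2157 at 600 nt and 1567 at 650 nt against input of 58.2, 36.5 and 19.8, and its exon score was 4.83. DUSP5, a phosphatase of ERK kinases, peaked at 550 nt with 841 against 20.7. The lowest was ATF3, a stress-induced transcription factor, with 0.74. Without centring on the gene's median this list had 9 of 11 with a run, beside 46.9% of all members.

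Solute carriers, the transporters of small molecules across membranes, had runs in 25 of 43 members and a median exon score of 2.78, beside 44.2% and 1.85 for all members. SLC38A10 had a run of 21 windows and a peak of 217 against 2.73 at 950 nt. SLC2A1, the glucose transporter GLUT1, had 397 against 22.6 at 650 nt, and SLC1A5, a glutamine transporter, a run that peaked at 400 nt with an IP of 141. At the other end SLC45A3 scored 0.34, but its transcript held 1 run outside the member exon, with a highest pair of windows at 3.76. Genes named ZNF, mostly zinc finger transcription factors, had runs in 24 of 46, nearer to that share (34 without centring, beside 46.9% of all members), at a median input of 1.54. Their median peak was at 675 nt, beside 400 nt for all members. DEAD and DEAH box RNA helicases had runs in 7 of 10, beside the same 44.2%, with DDX20 leading: IP was 161 at 300 nt over an input of 10.8, and 90.3 over 1.36 at 500 nt.

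Ubiquitin ligases and deubiquitinases (30 of 64), chromatin regulators (15 of 32), splicing factors (8 of 16) and Mediator subunits (4 of 8) lay near the 44.2% of all members. Each spanned a wide range. FBXW7, a substrate receptor for cyclin E and MYC, had 429 against 6.58 at 250 nt. CHD1, a chromatin remodeller, had 294 against 11.3 at 400 nt, and CBX3, a heterochromatin protein, scored 0.73. RBM23 had 651 against 19.3 at 200 nt, whereas SRRM1 scored 0.50. U2AF2, the large subunit of the factor that recognises the 3′ splice site, had 470 against 18.0 at 500 nt.

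Other lists were at or under the overall share of 44.2%. Genes of the cell cycle list had runs in 9 of 25 and TMEM-named membrane proteins in 13 of 42. DNA damage response genes had them in 4 of 11 (2 without centring, beside 46.9% of all members). Stress and protein folding genes had them in 7 of 17. Within the cell cycle list CDC25A and FBXW7 were high, whereas RB1 (0.75), CCNA2 (0.67) and CDC6 (0.60) were low. FANCA, a subunit of the Fanconi anaemia core complex, had 2 runs and a peak of 53.01 against 1.45 at 800 nt. CHEK1, a checkpoint kinase, scored 0.44, but its transcript held 1 run outside the member exon, with a highest pair at 3.35. Interferon and JAK-STAT genes had runs in 6 of 14. There STAT6 had 890 against 45.2 at 250 nt, and IFNAR2 is described above.

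Genes of glycolysis and the cytoskeleton had runs in 2 of 17 (1 without centring), beside 44.2% of all members (46.9% without centring), at the highest median input of any list, 59.1. These were MYH9, nonmuscle myosin heavy chain, with 1305 against 264 at 250 nt, and LCP1, the leukocyte actin-bundling protein plastin, with an exon score of 2.18. The exons of PGK1 (1.01), LDHA (0.80) and TUBA1A (0.75) had none. The low score of ENO1 (0.67) is from one of the 59 exons placed at the 5′ end, with a median input of 2.67. Cytosolic ribosomal protein genes had a run in 0 of 8, but the median input of these exons was only 1.08, and a count of 0 of 8 says little about such genes. Oxidative phosphorylation genes had 1 of 5, also beside 44.2%, in COX10, a haem synthesis enzyme (19.2 against 2.14 at 300 nt).

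Single strong exons also stood out in smaller lists. DGCR8, the partner of DROSHA in microRNA processing, had 205 against 4.91 at 350 nt, and UPF1, the helicase of nonsense-mediated decay, 225 against 8.64 at 800 nt. NLRC5, a regulator of class I antigen presentation genes, had 92.1 against 5.48 at 200 nt. Its transcript also held 2 runs outside this exon, with a higher pair of windows there (4.52 against 3.99). BBC3, the pro-apoptotic protein PUMA, had 115 against 3.51 at 150 nt, whereas the effector BAK1 scored 0.59. EIF3A, the largest subunit of an initiation factor, had 268 against 19.8 at 250 nt, whereas EIF4H scored 0.67. MAPK11, a p38 kinase, had 82.4 against 1.66 at 1050 nt, and MAP2K1, the ERK kinase MEK1, scored 0.57. CD83, a marker of activated B cells and dendritic cells, had 358 against 20.4 at 500 nt. The other 12 lists with 3 or more members, to which these belong, held 3 to 18 members each. They had runs in 22.2 to 50% of them, beside 44.2% of all members. Without centring, 46.9% of all members had a run. There DUSP and PTPN phosphatases moved from 3 to 5 of 7, and CCDC-named genes from 4 to 6 of 10. Translation initiation factors moved from 3 to 2 of 6, kinesins from 2 to 1 of 4 and CD-named molecules from 2 to 3 of 9.

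The m6A machinery itself had 6 members, of which 2 had a run (4 without centring), below and above the 44.2% and 46.9% of all members. WTAP, a writer subunit, had an IP of 129 over an input of 7.81 at 450 nt and a run of 9 windows. YTHDC2, a reader with helicase activity, had 25.3 against 3.98 at 50 nt. ALKBH5, a demethylase, scored 1.57 and YTHDF1, a cytoplasmic reader, 0.65. The exon of ZC3H13, a writer partner, had a median input of 0.0737 in a gene with a mean of 3.52, so its low score carries little. The transcript of ZC3H13 held 2 runs outside this exon, with a highest pair of windows at 3.71. 

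Compared with neighbouring kinds of exon in measured genes of 3 or more exons, the members were intermediate in how many exons held a run. The shares were 22.7% (interval 21.3 to 24.2%) in longer terminal exons of 6 to 20 windows, 44.2% in the members and 62.7% (60.9 to 64.6%) in longer terminal exons of over 40 windows. These classes differ in length, and a longer exon has more places where a run can fall. They also come from different genes, whose median mean input was 4.55, 3.61 and 2.86 in the same order. The part of either in these shares was not tested. The share of windows enriched differed less, at 8.69, 9.31 and 8.27%. Where input reached both 5 and the median of the gene the order turned, at 12.4, 14.3 and 16.2%, with the longest exons above the members. This kept 15241 of 42303, 19959 of 69269 and 35710 of 186651 windows. In the members it kept 1202 of 2350 windows at 100 nt and 552 at 1000 nt, so it favours the inner part. The part of position in the turned order was not tested. The median peak lay at 300 nt in the shorter terminal exons and 400 nt in the longer ones, as in the members. At 250 nt, 22.7% of the members' windows were enriched, beside 13.6% (12.4 to 14.7%) in the shorter and 36.8% (34.9 to 38.7%) in the longer terminal exons. In exons of 6 windows, 250 nt is the outermost window, and short exons cannot hold far peaks. The part of these limits in the values of the shorter class was not tested.

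Internal exons of the same 21 to 40 windows were the most different. There 25.6% of windows (24.8 to 26.4%) were enriched, 74.9% of the 423 exons (70.5 to 79.0%) held a run, and the median peak was at 600 nt, 46.3% of the way along the exon. In the members these values were 9.31%, 44.2%, 400 nt and 27.4%. The peak positions are not like measures: internal exons were counted from their first-numbered window, which can face either end of the transcript. Where input reached both 5 and the median of the gene, the shares were 31.04% in internal exons and 14.3% in the members, so the gap was also present at high input.

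**Figure D5:**
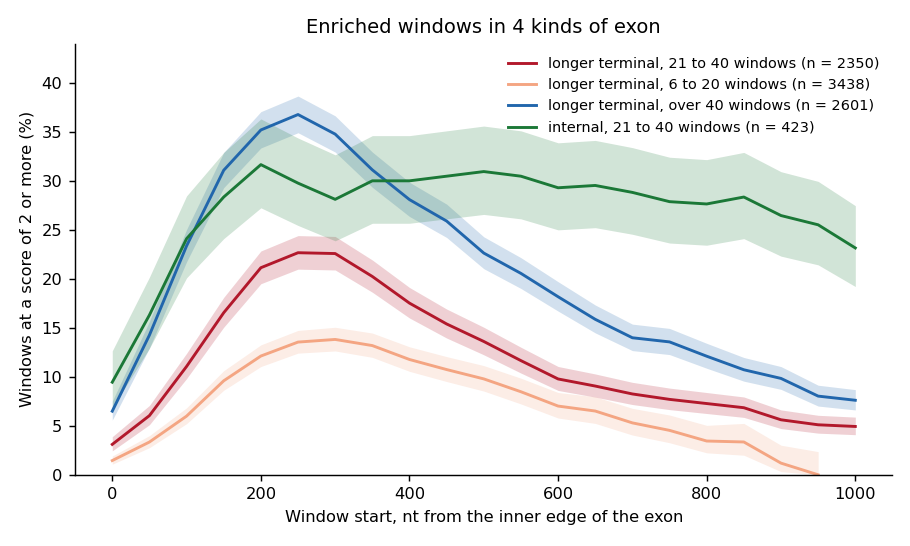
Percentage of windows at a score of 2 or more (bands, exact 95% intervals) against window start in nt from the inner edge, for the members and 3 other kinds of exon; internal exons are drawn from their first-numbered window. The members rise to 22.7% at 250 nt and fall to 4.94% at 1000 nt, between the other terminal exons as far as the shorter ones reach, whereas internal exons stay above 20% from 100 to 1000 nt.

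Among the members, the share with a run varied with input but did not rise steadily. In 4 groups of 587 or 588 exons, from low to high median input, it was 34.2, 45.7, 52.0 and 44.9%, and the interval of the lowest group (30.4 to 38.2%) lay under those of the other 3. The lowest group had a median input of 0.887, at which few reads stand behind each window. In 77 exons the median input was under 0.1 times that of the rest of the transcript, and 5 of these had a run, beside 45.4% of the other 2273. Where input fell steeply, to under 25% from the inner to the outer part (516 exons), 35.9% had a run and the median peak was at 300 nt, and in the others 46.5% and 400 nt. The part of these low-input exons in the overall share was not tested.

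In genes with more exons a larger share of the member exon's windows was enriched, but the intervals cannot set the classes apart. The share of enriched windows was 7.69% (7.29 to 8.11%) in genes of 3 to 5 exons, 8.43% for 6 to 10 exons, 10.5% for 11 to 20 and 11.5% (10.9 to 12.2%) for over 20. The share of exons with a run was 41.6, 42.9, 45.7 and 48.1%, and the intervals of the lowest and highest class overlap. The intervals of the window shares treat overlapping windows as independent, so they are too narrow to set these classes apart. The log2 ratio of the gene's median coverages, which the score subtracts, fell over the same classes from 0.28 to -0.26, and its part in the rise was not tested.

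The 59 exons at the 5′ end by strand had runs in 23 (39.0%, interval 26.5 to 52.6%) with a median peak at 450 nt, and the 1821 at the 3′ end in 44.1% with a median peak at 350 nt. Pseudogenes had runs in 18 of 33 (36.4 to 71.9%) and long noncoding RNAs in 9 of 14 (35.1 to 87.2%), beside 44.4% of protein-coding members. These intervals overlap. Of the windows of pseudogene members 14.2% (12.1 to 16.6%) were enriched, beside 9.36% (9.14 to 9.59%) of those of protein-coding members, from few exons. These window intervals are too narrow, as overlapping windows were treated as independent.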

How the data were processed

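A pair of libraries of GM12878 RNA were used, 1 m6A immunoprecipitate and 1 input. The authors deposited a table with the signal (scaled coverage) of each window in both libraries, and a log2 window score, per the file headers. The submitters' processing notes name TopHat 1.1.3, a spliced-read aligner, and the hg19 build; for the coverage program, the scaling and the annotation of exons, no name is given in these sources. The deposited score was recomputed from the deposited coverages and gene medians with 1 added (largest difference 1.64e-14).

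Listings that began at exon 1 window 1 were read, and the longest was kept for each of 47352 names. Of 10767 genes with a mean input of at least 1, 9008 had 3 or more exons, and 195 of these had terminal exons of equal length and were left out. Symbols, gene class and strand came from RefSeq tables of another build: 2038 members matched by current symbol, 215 by an older one and 97 by none. Window sequences were not analysed here.

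Shares carry exact 95% intervals, except those of the gene lists. Ratios at peaks carry exact binomial intervals from the implied reads, taken as 36 nt long. Calculations used pandas 2.3.3, numpy 2.4.6 and scipy 1.17.1 under Python 3.11.15, with figures from matplotlib 3.10.9, and were tested on simulated data. Members, gene lists and tests were chosen with earlier results of these data known. Named exons were the 12 of highest exon score with a run of 3 or more windows, the 3 of longest run, the 4 with most runs, the 6 of lowest exon score in the top 10% of median input, the 4 strongest with a peak in the outer part (1 of 3 equal parts), and the highest and lowest of each list with 3 or more members. A few of these exons are not reported here. Further list members, chosen after their values were seen, serve as examples. The alternatives tried were the threshold, the number added before the log, the centring, the minimum input, the run length and the choice among tied listings.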

Additional observations from a re-analysis of the deposited data

How the results depend on the processing

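The median peak distance stayed between 350 and 400 nt under all alternatives run, and the share of enriched windows was higher between 200 and 300 nt than at either edge under each alternative that was run on the profile. Shares moved with the definition of enrichment. Values are given in the order windows enriched, exons with a run, innermost window, highest window and outermost window, all in percent, beside 9.31, 44.2, 3.11, 22.7 and 0.979. With a threshold of 1 they were 21.2, 70.8, 11.6, 43.5 and 5.404, and with a threshold of 3 they were 3.63, 22.8, 0.638, 10.1 and 0.298. With 0.1 added before the log they were 11.7, 50.8, 4.94, 26.7 and 2.77, and with 5 added 5.93, 32.7, 0.894, 14.9 and 0.553. In windows whose input reached 5 and the gene's median they were 14.3, 33.1, 5.03, 29.4 and 5.76. Here the share of exons is of the 1800 exons with at least 2 such windows, and runs were counted among such windows only. Without centring, windows, exons, highest and outermost were at 12.8, 46.9, 25.96 and 2.04. In genes with a mean input of at least 5, windows were at 8.39 and the highest window at 20.7. Runs of at least 4 windows were present in 28.1% of exons. Among highest exons only, an alternative chosen after seeing the data like those on shared exons and on 3′ ends, windows were at 9.65, the innermost at 5.36 and the highest at 24.5.

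Of the other kinds of exon, terminal exons of 6 to 20 windows had 12.4% of windows and 19.4% of exons where input was high, and 9.62% of windows without centring. Terminal exons over 40 windows had 16.2 and 45.0%, and 10.3% of windows, so at high input their share of windows was above that of the members and not below it. The part of window position in this was not tested. Internal exons had 31.04 and 55%, and 33.3 and 83.5% without centring. At high input the shares of exons in these 3 kinds are of 2428, 2028 and 320 exons with enough such windows, and runs were counted among them only. The members stayed between the shorter and the longer terminal exons in exons with a run, and below internal exons, under these alternatives. Of the named exon scores, 172 values kept within the main counting interval, 70 moved and 1 reversed, that of RPSAP58 (-0.23 without centring). The cause of these shifts was not tested. The 172 include values that could hardly move, because few reads give a wide interval. For NDUFA4 (-8.70 to 9.30) and RPL10 (-8.74 to 9.26) the reads gave no bounded interval and a fixed width was used. No paired analysis was possible because each group has 1 library. With 1 library a group, biological spread is unknown, and low-input windows limit the outer ends of exons.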
